A study of Homo sapiens with 18 samples.

Results

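The genes described are 32 genes of the integrated stress response and its transcription factor ATF4, measured in LNCaP, an androgen-responsive human prostate cancer cell line. They were chosen by name, as rows of the count table that carried a member's symbol and passed a filter on low counts. All 32 were found among the 60649 genes of the table, and all 32 were among the 15390 genes that passed the filter. Cells were transfected with a pool of siRNAs against UPF1, against RCOR1, or with a non-targeting control pool, and all groups were moved to androgen-deprived medium the next day. At 48 h after transfection they received 5 nM R1881, a synthetic androgen, or ethanol as vehicle, for 48 h. This gives 6 groups: control siRNA with vehicle or R1881, UPF1 siRNA with vehicle or R1881, and RCOR1 siRNA with vehicle or R1881. Each group had 3 libraries, biological triplicates per the labels' protocols. Replicate numbers below only name libraries, in the order of deposition, and tie none to one another. UPF1 is the central helicase of nonsense-mediated decay (NMD), and RCOR1 (CoREST) is a scaffold of a repressor complex with the demethylase KDM1A and histone deacetylases. Each gene was targeted with 1 pool, so a pool's effects on its target and elsewhere cannot be told apart.

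The integrated stress response slows general protein synthesis. Kinases that sense amino acid shortage, heme shortage, unfolded proteins or double-stranded RNA phosphorylate the initiation factor eIF2 on its alpha subunit, which reduces translation of most messages but favours that of ATF4 through short upstream reading frames. ATF4, with partners such as C/EBP proteins, then activates genes for amino acid transport and synthesis, the death-linked factor DDIT3 (CHOP), and PPP1R15A, a phosphatase subunit that reverses the phosphorylation. Several messages of the response, ATF4 among them, are also known as substrates of NMD. RNA levels show neither the phosphorylation of eIF2 nor ATF4 protein, which were not analysed here.

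C/EBP and ATF proteins bind together at composite elements, and some lie in the promoters of the response's own genes, so these promoters were searched. The letters searched were TGATGNAA, on both strands, in windows of 300 bases (build GRCh38.p14). Each window ran from 250 before to 50 after the first RefSeq start listed for the gene. Any other starts of a gene were not searched. The element was found in 7 of the 28 genes with a promoter in the table and in 3.67% of all 27305 promoters. NUPR1, EIF2AK1, EIF4EBP1 and GPT2 had no entry. The palindromic cyclic AMP response element, TGACGTCA, which bears no overlap with those matches, was found in 1 of 28, PPP1R15A, and in 1.98% of all promoters. The matches upstream of the start follow with 20 bases on either side, 5′ to 3′ on the strand of the gene, with the match in capitals. In CHAC1 the capitals are the element read from the opposite strand.
ATF3, chr1:212565196-212565243, plus strand: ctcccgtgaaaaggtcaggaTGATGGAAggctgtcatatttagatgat
PPP1R15B, chr1:204412017-204412064, minus strand: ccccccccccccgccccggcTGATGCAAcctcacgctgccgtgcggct
CHAC1, chr15:40953242-40953289, plus strand: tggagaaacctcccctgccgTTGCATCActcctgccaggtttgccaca
ASNS, chr7:97872449-97872496, minus strand: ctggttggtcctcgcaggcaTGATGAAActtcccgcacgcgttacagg
PPP1R15A, chr19:48872343-48872390, plus strand: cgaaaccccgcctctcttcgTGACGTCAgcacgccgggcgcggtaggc
The matches begin 191 bases before the start in ATF3, 227 in PPP1R15B, 209 in CHAC1, 68 in ASNS and 58 in PPP1R15A. The other matches, in SLC3A2, SLC7A1 and SLC38A1, lay at or near the start. A match describes the letters only, and factor binding was not measured.

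Libraries held 10299607 to 17338235 counts. UPF1 was lower in every library with its siRNA, at 20.5 to 26.8 CPM (counts scaled to library size by TMM) against 123 to 164 CPM with control siRNA, and RCOR1 stood at 9.08 to 15.8 CPM with its siRNA against 68.2 to 107 CPM. All 10 LNCaP and luminal prostate markers were expressed past the filter. Of 15 markers of basal, stromal, immune, endothelial and neuroendocrine cells, 5 passed it (KRT14, COL1A1, CD68, VWF and SYP), and TP63, COL1A2, CD3E, CDH5 and CHGA had 0 counts in all 18 libraries. The summed level of these markers was 22.2 to 27.3 CPM with control siRNA and vehicle and 14.5 to 17.8 CPM with control siRNA and R1881. With UPF1 siRNA it was 45.4 to 50.3 and 42.3 to 46.6 CPM in vehicle and R1881, and with RCOR1 siRNA 20.8 to 25.4 and 17.28 to 20.7 CPM. SYP was higher with UPF1 siRNA, by log2 fold changes of 2.24 (vehicle) and 1.98 (R1881), as was VWF, by 1.15 and 1.71. The part of these markers in the results was not tested. Libraries of the same group differed in AT-rich transcripts, in every group. Replicates 1 and 2 of UPF1 siRNA with R1881 had the lowest levels of genes under 40% GC. Their median deviation from the average library was -0.63 and -0.44 on the log2 scale. Control vehicle replicate 2 and control R1881 replicate 1 stood at -0.32 and -0.32, with GC-rich genes at 0.18 and 0.20. The other control libraries stood at 0.26 and 0.10 in vehicle and at 0.28 and 0.30 in R1881. The part of GC content in the results was not tested. The 32 genes had a median GC content of 54%, against 48.1% over tested genes, and 1 of them, SLC38A2 at 38.1%, was under 40%.

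Levels between genes were compared per length, as CPM per kilobase of exon in control siRNA with vehicle. Length was the union of a gene's annotated exons over all its transcripts, and the order of genes can depend on that choice. ATF4 was the most abundant of the 32 at 88.4 ± 7.2 CPM per kb (SD, n = 3), followed by DDIT4, an inhibitor of mTORC1, at 60.8 ± 6.2. EIF4EBP1, which holds back cap-dependent translation, stood at 57.4 ± 9.8, within its spread of DDIT4. The heme-regulated eIF2 kinase EIF2AK1 came next at 45.7 ± 0.53. The lowest levels belonged to the transporter gene SLC7A5 (1.86 ± 0.33), PPP1R15A (1.77 ± 0.079) and asparagine synthetase, ASNS (1.10 ± 0.32). ASNS had as few as 42 counts in a library.

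R1881 raised a majority of the 32 genes with every siRNA. A gene is called higher or lower where the Benjamini-Hochberg adjusted p of edgeR's quasi-likelihood test, over all 15390 genes, is below 0.05. With control siRNA 21 of 32 were higher and 3 lower, where 20.1% of all tested genes were higher and 17.6% lower. The median log2 fold change was 0.42, and 0.02 over all tested genes. In bulk RNA, fewer cells of a type and less RNA per cell cannot be told apart. With UPF1 siRNA 18 were higher and 2 lower (all genes 21.6% and 20%), with a median of 0.47, and -0.01 over all genes. Without the AT-poor replicates 1 and 2 of UPF1 siRNA with R1881, the median in this arm was 0.38, and -0.03 over all genes. The calls of CEBPB, CHAC1, EIF4EBP1, JDP2, PCK2, SLC6A9 and STC2 were lost, and fewer of all tested genes were called as well. The lone library left in that group is assumed to vary like the other groups. With RCOR1 siRNA 18 were higher and 4 lower (all genes 16.3% and 14.9%), with a median of 0.41, and 0.02 over all genes. The genes higher in all 3 siRNA arms were ATF4, ATF3, EIF2AK4, PPP1R15B, TRIB3, CHAC1, VLDLR, PCK2, GPT2, CTH, SLC7A1, SLC1A4, SLC1A5 and SLC6A9. That is 14 of 32, against 11.1% of all tested genes, and JDP2 and SLC7A5 were lower in all 3 arms, 2 of 32 against 8.6%. Scaling by library size alone moved the median of all genes to -0.22, -0.10 and -0.17 in the control, UPF1 and RCOR1 arms, and the 32 genes' median minus that of all genes stayed at 0.40, 0.47 and 0.39. Under that scaling 11 of 32 were higher and 5 lower with control siRNA (all genes 11% and 30.5%), 16 and 2 with UPF1 siRNA (all genes 14.9% and 25%), and 13 and 4 with RCOR1 siRNA (all genes 9.9% and 23.9%).

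**Figure D1:**
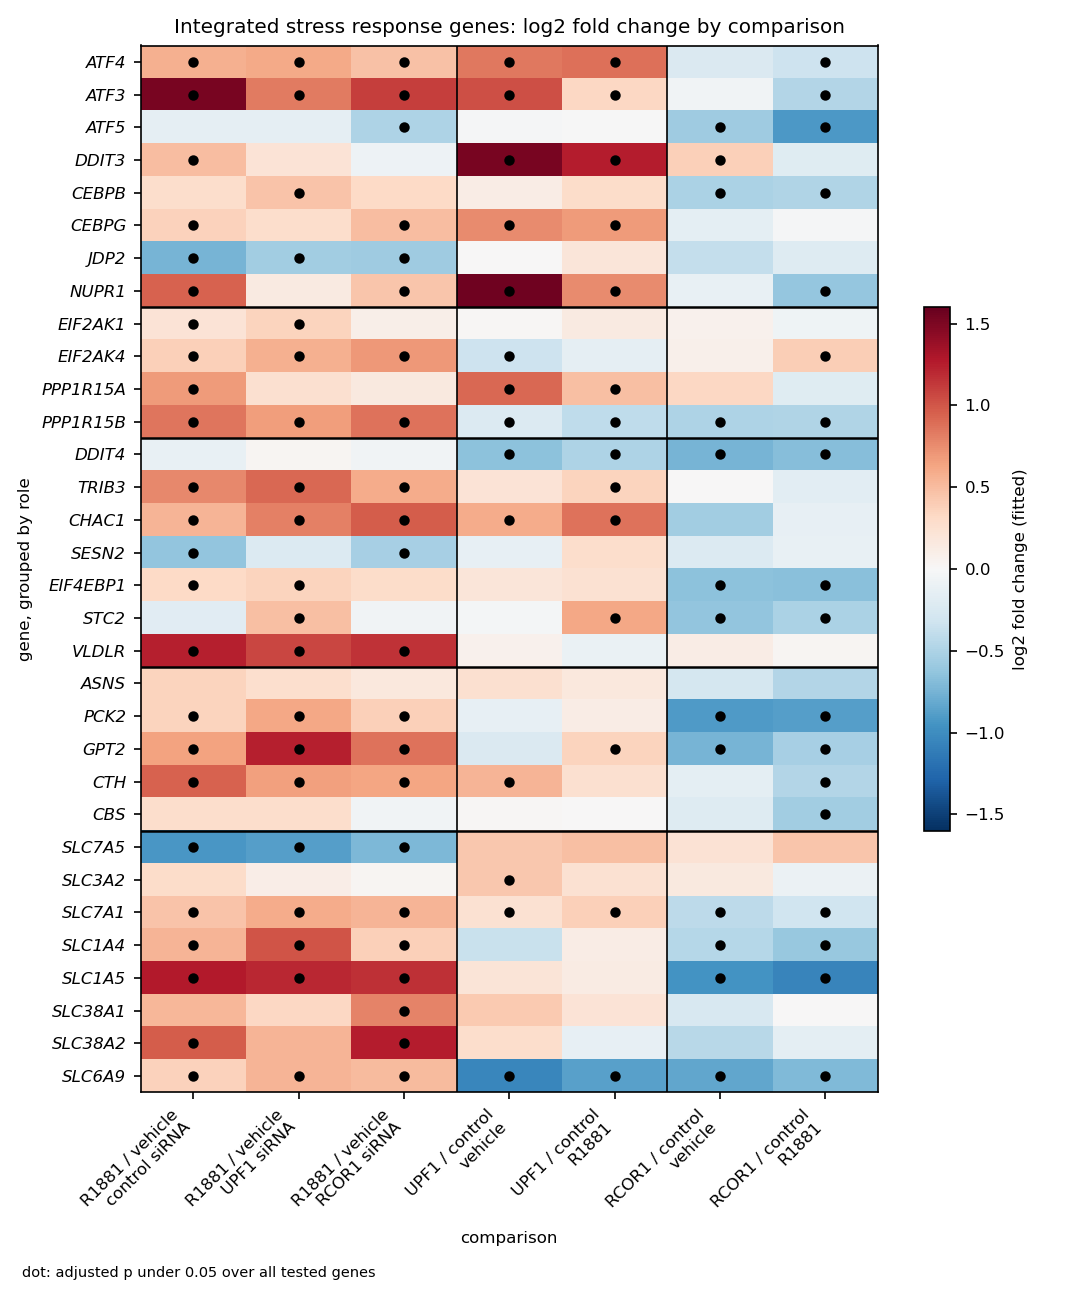
Fitted log2 fold change (colour) of the 32 genes (rows, grouped by role) in 7 comparisons (columns); a dot marks an edgeR adjusted p below 0.05. R1881 comparisons are mostly red, RCOR1 siRNA comparisons mostly blue, and UPF1 siRNA raised the transcription factors ATF4, ATF3, DDIT3, CEBPG and NUPR1. The small EIF2AK1 value with control siRNA is the one R1881 call that changes sign when libraries are scaled by size alone.

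Of the 8 transcription factors, 5 rose with R1881 with control siRNA and 1 fell. ATF4 (ENSG00000128272.17, chromosome 22, 39519695 to 39522685) stood at 214, 243 and 209.9 CPM in the control vehicle libraries and at 355, 313 and 318 CPM with R1881. All R1881 libraries lay above all vehicle libraries. The log2 fold change was 0.56 ± 0.077 (SE, edgeR adjusted p = 2.2e-05), with 0.61 ± 0.077 (edgeR adjusted p = 1.0e-05) in the UPF1 arm and 0.47 ± 0.077 (edgeR adjusted p = 0.00019) in the RCOR1 arm. ATF3 (chromosome 1, 212565334 to 212620777), a stress-induced factor that can repress ATF4 and CHOP targets, was at 20.5, 19.98 and 21.6 CPM in vehicle and at 66.2, 57.2 and 54.8 CPM with R1881. The groups were far apart, and the log2 fold change of 1.52 ± 0.088 (edgeR adjusted p = 1.1e-09) was the highest of the 32. It was 0.83 ± 0.085 (edgeR adjusted p = 1.1e-06) with UPF1 siRNA and 1.10 ± 0.088 (edgeR adjusted p = 7.4e-08) with RCOR1 siRNA. DDIT3 (chromosome 12, 57516588 to 57521737), which encodes CHOP, moved from 17.4, 16.8 and 15.95 CPM to 24.4, 21.7 and 24.3 CPM. The ranges did not overlap, and DDIT3 rose by 0.49 ± 0.097 (edgeR adjusted p = 0.00074). Under library size alone the value was 0.25 and not called. In the UPF1 and RCOR1 arms DDIT3 was not called, at 0.22 ± 0.092 (edgeR adjusted p = 0.063) and -0.08 ± 0.096 (edgeR adjusted p = 0.56).

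NUPR1 (chromosome 16, 28532708 to 28539174), a small stress-induced chromatin protein, stood at 138, 159.8 and 147 CPM in control vehicle libraries and at 320.1, 268 and 266 CPM with R1881. Its log2 fold change was 0.94 ± 0.11 (edgeR adjusted p = 4.5e-06) with control siRNA and 0.44 ± 0.11 (edgeR adjusted p = 0.0057) with RCOR1 siRNA, the latter not called under library size alone (0.25). With UPF1 siRNA it was 0.15 ± 0.11 and not called (edgeR adjusted p = 0.30). JDP2, a repressor of the AP-1 family, fell by log2 fold changes of -0.74, -0.55 and -0.57 in the control, UPF1 and RCOR1 arms. ATF5 fell in the RCOR1 arm (-0.49 ± 0.15, edgeR adjusted p = 0.020), with overlapping libraries, and that call was lost without RCOR1 vehicle replicate 1 or 2 or RCOR1 R1881 replicate 2 or 3. CEBPG, a partner of ATF4, was higher with control siRNA (0.36, with overlapping libraries and a call that held in 5 of 11 alternative analyses) and RCOR1 siRNA (0.50), and CEBPB was higher with UPF1 siRNA (0.45).

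Of the 4 genes that set eIF2 phosphorylation, all were called higher with R1881 in the control arm, 2 of which were not under library size alone. The amino acid-sensing kinase EIF2AK4 (GCN2) rose by 0.38, 0.57 and 0.70 in the control, UPF1 and RCOR1 arms, and the first value was 0.14 and not called under library size alone. PPP1R15B, the constitutive phosphatase subunit, rose by 0.85, 0.67 and 0.86. PPP1R15A (GADD34), the stress-induced subunit, rose by 0.68 ± 0.12 (edgeR adjusted p = 0.00039) with control siRNA and was not called in the other arms, at 0.25 and 0.16. EIF2AK1 rose by 0.22 ± 0.055 (edgeR adjusted p = 0.0043) with control siRNA, but the value was -0.02 under library size alone, and the call was lost without control R1881 replicate 1 (0.18) or replicate 2 (0.18). Further kinases stand outside the 32 genes: PERK, EIF2AK3, was higher with R1881 in the control (0.51) and UPF1 (0.53) arms, and PKR, EIF2AK2, was not called in any of the 7 comparisons.

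Among stress effectors, VLDLR and TRIB3 rose in all 3 arms. VLDLR (chromosome 9, 2621834 to 2660053), a lipoprotein receptor gene activated by ATF4, stood at 27.4, 21.9 and 26.5 CPM in control vehicle libraries and at 52.2, 64.2 and 63.1 CPM with R1881. With UPF1 siRNA it went from 25.1, 28.7 and 25.6 CPM to 55.3, 54.7 and 56.99 CPM. With RCOR1 siRNA it went from 28.97, 25.4 and 27.8 CPM to 59.1, 58.3 and 65.2 CPM. Vehicle and R1881 libraries did not overlap in any arm, and the log2 fold changes were 1.24 ± 0.10, 1.07 ± 0.10 and 1.15 ± 0.10 (edgeR adjusted p = 9.0e-08, 4.9e-07 and 2.8e-07). VLDLR was not called for either siRNA against control, with values between -0.10 and 0.12. TRIB3, a pseudokinase that feeds back on ATF4, rose by 0.77, 0.91 and 0.59. CHAC1, a glutathione-degrading enzyme, rose by 0.54, 0.81 and 0.97, and its control vehicle and R1881 libraries overlapped. The control-arm call of CHAC1 held in 3 of 11 alternative analyses. EIF4EBP1 was higher with R1881 in the control arm (0.32) and the UPF1 arm (0.36). These calls held in 1 of 11 and 6 of 12 alternative analyses. The first was lost without control vehicle replicate 1 or 3 or any control R1881 library. SESN2, an mTORC1 inhibitor, was lower with control siRNA (-0.64) and RCOR1 siRNA (-0.54), and DDIT4 was not called in any arm (-0.12, 0.03 and -0.06). The RCOR1-arm call of SESN2 held in 9 of 11 alternative analyses. It was lost without RCOR1 vehicle replicate 2 or RCOR1 R1881 replicate 2.

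Of the 5 enzymes, PCK2, GPT2 and CTH rose with R1881 in every arm, and ASNS and CBS were not called. GPT2 (chromosome 16, 46884378 to 46931297), the mitochondrial alanine aminotransferase, stood at 95.01, 115 and 93.7 CPM in control vehicle libraries and at 181, 146 and 149 CPM with R1881. In the UPF1 arm GPT2 went from 85.2, 85.2 and 87.5 CPM to 213, 207 and 191 CPM. In the RCOR1 arm GPT2 went from 62.1, 64.1 and 54.3 CPM to 117, 105 and 108 CPM. Each arm's R1881 libraries lay above its vehicle libraries, with log2 fold changes of 0.65 ± 0.10, 1.25 ± 0.10 and 0.87 ± 0.10 (edgeR adjusted p = 7.6e-05, 7.2e-08 and 5.7e-06). CTH, which makes cysteine from cystathionine, rose by 0.94, 0.65 and 0.63. PCK2, mitochondrial PEP carboxykinase, rose by 0.35, 0.61 and 0.38, and the control-arm and RCOR1-arm calls held in 1 and 5 of 11 alternative analyses. The first was lost without vehicle replicate 1 or 3 or any R1881 library, and the second without RCOR1 vehicle replicate 3 or RCOR1 R1881 replicate 1 or 2. ASNS, whose promoter holds the element shown above, was called in none of the 7 comparisons, as were 27.4% of tested genes. It stood at 4.24, 6.52 and 3.94 CPM in control vehicle libraries and at 8.43, 5.04 and 5.42 CPM with R1881, and these ranges overlapped. Its log2 fold change was 0.36 ± 0.22 (edgeR adjusted p = 0.23), with a 95% interval from -0.07 to 0.79.

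Of the 8 transporters, 5 rose and 1 fell with R1881 and control siRNA, and SLC1A5 had the next highest rise of the 32 genes after ATF3. SLC1A5 (ASCT2; chromosome 19, 46774883 to 46788594), a glutamine transporter, stood at 101, 134 and 102 CPM in control vehicle libraries and at 315, 245 and 255 CPM with R1881. In the UPF1 arm SLC1A5 went from 138, 128 and 123 CPM to 309, 305 and 280.3 CPM. In the RCOR1 arm SLC1A5 went from 63.1, 59.6 and 51.6 CPM to 142, 119 and 130.4 CPM. The groups did not overlap within any arm, and the log2 fold changes were 1.27 ± 0.12, 1.2 ± 0.12 and 1.17 ± 0.12 (edgeR adjusted p = 5.0e-07, 1.0e-06 and 2.0e-06). SLC1A4 (chromosome 2, 64988477 to 65023865), a serine and alanine transporter, went from 14.97, 18.03 and 13.8 CPM to 26.2, 21.8 and 20.2 CPM with control siRNA. In the UPF1 arm SLC1A4 went from 12.1, 12.8 and 11.9 CPM to 22.2, 28.9 and 22.97 CPM. In the RCOR1 arm SLC1A4 went from 11.9, 12.2 and 10.2 CPM to 15.3, 14.0 and 15.5 CPM. These groups did not overlap either, with log2 fold changes of 0.54 ± 0.13, 1.01 ± 0.13 and 0.38 ± 0.13 (edgeR adjusted p = 0.0034, 1.4e-05 and 0.038). The last call was lost in all 11 alternative analyses, with values from 0.19 to 0.43.

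SLC38A2 (SNAT2; chromosome 12, 46358189 to 46372867), a sodium-coupled transporter induced by amino acid shortage, varied widely within groups. It stood at 313, 185 and 269.9 CPM in control vehicle libraries and at 318, 579 and 604 CPM with R1881. With RCOR1 siRNA it went from 153, 161 and 250 CPM to 337, 485 and 529 CPM. It rose by 0.97 ± 0.29 with control siRNA (edgeR adjusted p = 0.015) and by 1.26 ± 0.29 with RCOR1 siRNA (edgeR adjusted p = 0.0035), and vehicle and R1881 libraries did not overlap in either arm. With UPF1 siRNA it went from 270.4, 313 and 351 CPM to 331, 398 and 639.6 CPM. These libraries overlapped, and the change was not called (0.55 ± 0.29, edgeR adjusted p = 0.14). The lowest library of the control vehicle group, replicate 2, and of the control R1881 group, replicate 1, had AT-rich deviations of -0.32 and -0.32, and the lowest UPF1 R1881 library one of -0.63, so the SLC38A2 level moved with AT-rich content within groups. Its part in the result was not tested. The control-arm call was lost without control vehicle replicate 2 (0.77), R1881 replicate 2 (0.81) or R1881 replicate 3 (0.78). SLC38A1, at 41.3% GC, was lowest in the same control libraries. It stood at 221, 136 and 200 CPM in control vehicle libraries and at 183, 310 and 310 CPM with R1881. Its R1881 call with RCOR1 siRNA (0.79) held in 7 of 11 alternative analyses. That call was lost without RCOR1 vehicle replicate 1 or 2 or RCOR1 R1881 replicate 2 or 3.

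SLC6A9 (GLYT1; chromosome 1, 43991500 to 44031467), a glycine transporter, went from 16.8, 21.0 and 16.8 CPM to 27.97, 21.3 and 21.5 CPM with control siRNA. In the UPF1 arm SLC6A9 went from 8.16, 9.40 and 9.02 CPM to 13.7, 13.02 and 12.1 CPM. In the RCOR1 arm SLC6A9 went from 11.2, 10.33 and 9.08 CPM to 14.9, 15 and 13.5 CPM. All R1881 libraries were above the vehicle libraries of their arm, with log2 fold changes of 0.37 ± 0.12, 0.55 ± 0.13 and 0.50 ± 0.13 (edgeR adjusted p = 0.027, 0.0035 and 0.0073). The control-arm call held in 3 of 11 alternative analyses. It was lost without vehicle replicate 1 (0.31), vehicle replicate 3 (0.31) or R1881 replicate 1 (0.18), with DESeq2 (0.35), with its size factors (0.35), with no filter (0.35), on the compared groups alone (0.32) and under library size alone (0.13). SLC7A5 (LAT1), the large neutral amino acid exchanger, fell in all 3 arms, at -0.93, -0.89 and -0.72. The RCOR1-arm call of SLC7A5 held in 9 of 11 alternative analyses. It was lost without RCOR1 vehicle replicate 1 or RCOR1 R1881 replicate 3. SLC3A2, the partner subunit of SLC7A5, was not called in any arm (0.29, 0.10 and 0.04). SLC7A1, a cationic amino acid transporter, rose by 0.45, 0.59 and 0.55.

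**Figure D2:**
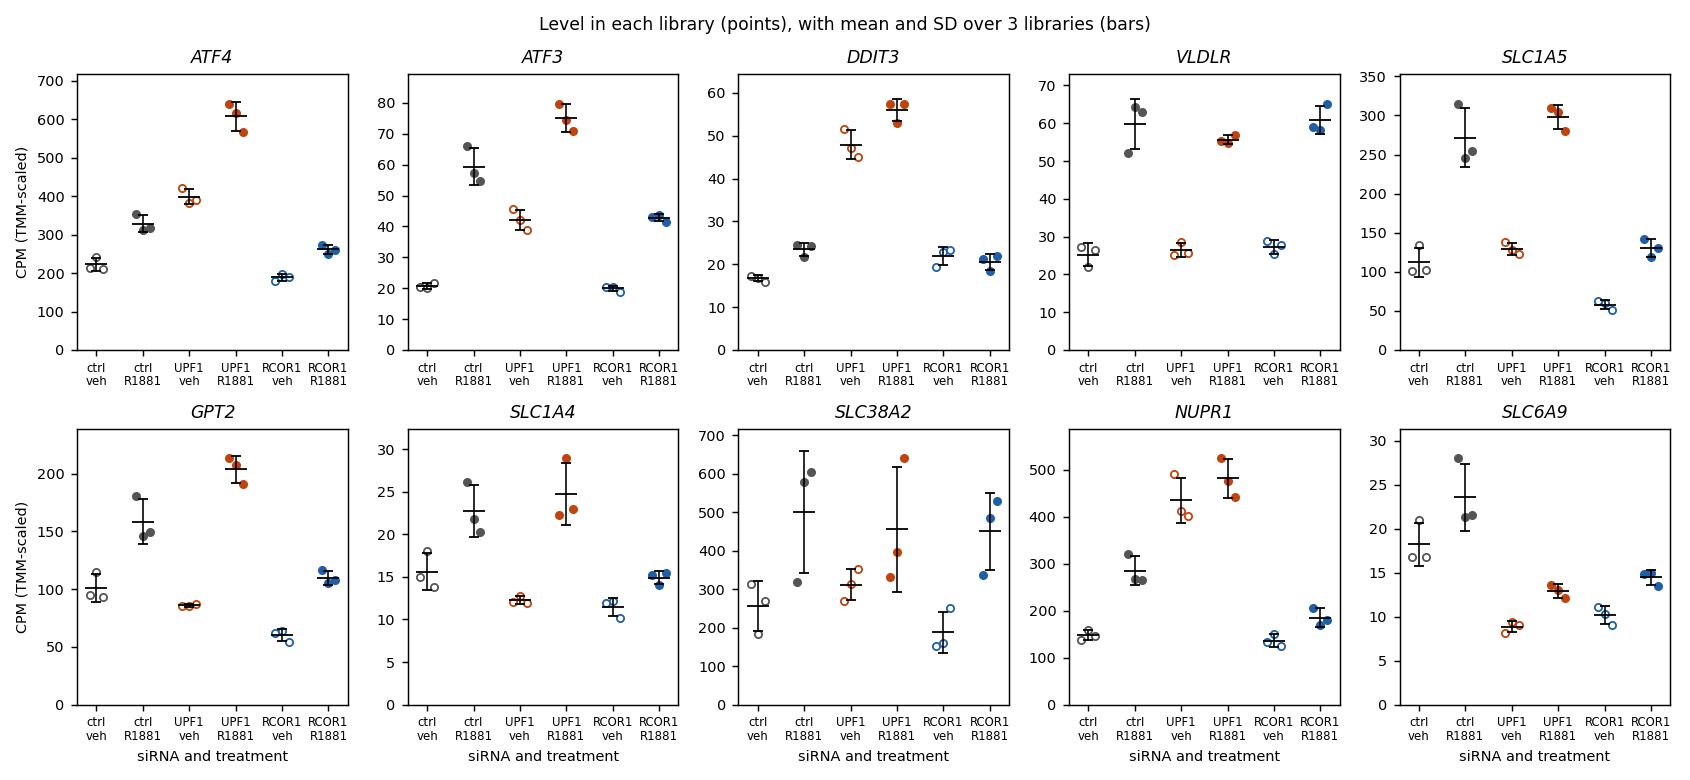
CPM (TMM-scaled) in each library (points; open for vehicle, filled for R1881) of 10 genes in the 6 groups, with mean and SD over 3 libraries (bars). ATF4, DDIT3 and NUPR1 are highest with UPF1 siRNA, SLC1A5 and GPT2 are lowest with RCOR1 siRNA and vehicle, VLDLR follows R1881 alone, and SLC38A2 shows a wide spread.

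UPF1 siRNA raised ATF4, ATF3, DDIT3 and other stress factors in both treatments, while 1 of the 5 enzymes was called in each. Against control siRNA, 10 of 32 were higher and 4 lower in vehicle, where 18.5% of all genes were higher and 16% lower, and the median was 0.20, and 0.03 over all genes. The median was 0.13 without control vehicle replicate 1 and 0.13 without replicate 3, and its excess over all genes fell from 0.17 to 0.08 and 0.10, and to 0.10 without UPF1 vehicle replicate 1. In R1881 11 were higher and 3 lower (all genes 17.6% and 15.7%), with a median of 0.24, and -0.003 over all genes. Among the 11, the TRIB3 call (0.36) held in 4 of 12 alternative analyses and the STC2 call (0.62) in 12 of 12. Of the 8 transcription factors 5 were higher in each treatment and 0 lower. The genes higher in both treatments were ATF4, ATF3, DDIT3, CEBPG, NUPR1, PPP1R15A, CHAC1 and SLC7A1, that is 8 of 32 against 11.4% of all tested genes. In vehicle the SLC7A1 call held in 1 of 11 alternative analyses and the CHAC1 call in 4 of 11, and in R1881 both were lost without the AT-poor libraries. CHAC1 in vehicle was lost without control replicate 1 or 3 or UPF1 replicate 1 or 2, and SLC7A1 without control replicate 1 or 3 or any UPF1 library. In R1881 SLC7A1 was also lost without control replicate 3. PPP1R15B, DDIT4 and SLC6A9 were lower in both, 3 of 32 against 8.52%. Without the AT-poor libraries, replicates 1 and 2 of UPF1 siRNA with R1881, the median in R1881 was 0.11, and -0.035 over all genes. Fewer of all tested genes were called in that fit, which has 1 library left in the group. Without control R1881 replicate 3 the called count in R1881 was 9, against 14 with all libraries. In that fit 11.2% of all genes were higher and 12.8% lower.

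ATF4 reached 421, 383 and 391 CPM with UPF1 siRNA in vehicle, above every control library in either treatment, and 641, 615 and 567 CPM in R1881. The log2 fold changes against control siRNA were 0.84 ± 0.077 in vehicle (edgeR adjusted p = 6.9e-07), with 0.89 ± 0.077 in R1881 (edgeR adjusted p = 7.5e-07). DDIT3 stood at 51.6, 47.1 and 45.04 CPM in vehicle and at 57.5, 52.97 and 57.3 CPM in R1881 with UPF1 siRNA. All 6 values exceeded every control library, with log2 fold changes of 1.52 ± 0.096 (edgeR adjusted p = 2.4e-08) and 1.25 ± 0.095 (edgeR adjusted p = 2.1e-07). NUPR1 stood at 489.7, 412 and 402 CPM in vehicle and at 524, 477 and 443 CPM in R1881. It was above all control libraries, by 1.55 ± 0.11 (edgeR adjusted p = 6.4e-08) and 0.76 ± 0.11 (edgeR adjusted p = 8.9e-05). ATF3 stood at 45.5, 41.95 and 38.97 CPM in vehicle and at 79.8, 74.4 and 70.9 CPM in R1881. Its log2 fold change was 1.03 ± 0.088 in vehicle (edgeR adjusted p = 3.6e-07), and 0.34 ± 0.085 in R1881 (edgeR adjusted p = 0.0064). The second call was lost without control R1881 replicate 2 (0.30) or replicate 3 (0.24), and without both AT-poor UPF1 libraries (0.20, edgeR adjusted p = 0.39).

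The inducible PPP1R15A was higher by 0.92 ± 0.12 in vehicle (edgeR adjusted p = 3.0e-05), and by 0.49 ± 0.12 in R1881 (edgeR adjusted p = 0.0052). The R1881 call of PPP1R15A was lost without control R1881 replicate 3 and without both AT-poor UPF1 libraries, with a lowest value of 0.33. The constitutive PPP1R15B was lower, at -0.21 ± 0.075 (edgeR adjusted p = 0.037) and -0.40 ± 0.075 (edgeR adjusted p = 0.00080). Its vehicle call held in 4 of 11 alternative analyses, with values from -0.25 to -0.19, and was lost without control vehicle replicate 1 or 3 or any UPF1 vehicle library. EIF2AK4 was lower in vehicle (-0.33), and PERK, EIF2AK3, was higher in both treatments (0.79 and 0.81). SLC6A9 was the gene with the steepest decrease, at -1.04 ± 0.13 (edgeR adjusted p = 1.5e-05) and -0.87 ± 0.13 (edgeR adjusted p = 9.2e-05), and its UPF1 libraries lay below all control libraries of the same treatment. DDIT4 was lower, at -0.65 and -0.50. Among enzymes CTH was higher in vehicle (0.55) and GPT2 in R1881 (0.36). The GPT2 call was lost without control R1881 replicate 2 (0.30) or replicate 3 (0.28), and without both AT-poor UPF1 libraries (0.21). ASNS was not called, at 0.25 and 0.16.

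RCOR1 siRNA lowered amino acid transporters (4 of 8 in each treatment) and enzymes (2 of 5 in vehicle, 4 of 5 in R1881). Against control siRNA 12 of 32 were lower and 1 higher in vehicle, where 6.21% of all genes were lower and 5.31% higher, and the median was -0.27 against -0.01 over all genes. In R1881 17 were lower and 1 higher (all genes 7.33% and 5.06%), with a median of -0.40. The genes lower in both treatments were ATF5, CEBPB, PPP1R15B, DDIT4, EIF4EBP1, STC2, PCK2, GPT2, SLC7A1, SLC1A4, SLC1A5 and SLC6A9, that is 12 of 32 against 2.92% of all tested genes. Some of these calls were fragile. In R1881 that of SLC7A1 held in 1 of 11 alternative analyses, being lost without any control library or RCOR1 replicate 2 or 3, and that of CEBPB in 3 of 11, being lost without control replicate 1 or 2 or any RCOR1 library. In vehicle those of CEBPB and ATF5 held in 7 of 11 and were lost without control replicate 2 or RCOR1 replicate 3. Fitted on the compared groups alone, 8 were lower in vehicle, where 2.77% of all genes were lower. In R1881 that fit had 11 lower and 1 higher (all genes 2.83% and 2.51%). Both siRNAs were compared with the same control libraries, so the values of the 2 comparisons are not independent.

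SLC1A5 showed the largest decrease of the 32 with RCOR1 siRNA in both treatments. Its RCOR1 libraries lay below all control libraries of the same treatment, at -0.95 ± 0.12 in vehicle (edgeR adjusted p = 0.00015), and -1.06 ± 0.12 in R1881 (edgeR adjusted p = 4.1e-05). PCK2 was lower, at -0.91 ± 0.12 (edgeR adjusted p = 0.00019) and -0.88 ± 0.12 (edgeR adjusted p = 0.00019). GPT2 was lower, at -0.75 ± 0.10 (edgeR adjusted p = 0.00021) and -0.53 ± 0.10 (edgeR adjusted p = 0.0024). The GPT2 level with RCOR1 siRNA and R1881, 105 to 117 CPM, overlapped that of control siRNA with vehicle, 93.7 to 115 CPM. SLC6A9 was lower, at -0.84 and -0.71, and SLC1A4 at -0.45 and -0.61. The SLC1A4 call in vehicle held in 1 of 11 alternative analyses, with values from -0.53 to -0.34, and was lost without control vehicle replicate 1 or 2 or any RCOR1 vehicle library. DDIT4 was lower, at -0.74 and -0.68, EIF4EBP1 at -0.66 and -0.68, and STC2, a secreted glycoprotein induced by stress, at -0.64 and -0.51.

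Of the 8 transcription factors, 1 was higher and 2 lower with RCOR1 siRNA in vehicle, and 5 were lower in R1881. ATF4 stood at 180.2, 198.5 and 189 CPM in vehicle and at 274, 250 and 259.9 CPM in R1881 with RCOR1 siRNA. In vehicle it was not called (-0.23 ± 0.077, edgeR adjusted p = 0.062), although its libraries lay below those of control siRNA, and in R1881 it was lower, at -0.33 ± 0.077 (edgeR adjusted p = 0.0098). That call was lost without control R1881 replicate 1 (-0.26) or RCOR1 R1881 replicate 2 (-0.29), and under library size alone (-0.24). ATF3 stood at 20.4, 20.5 and 18.9 CPM in vehicle, overlapping the control libraries, and at 43.2, 43.7 and 41.5 CPM in R1881, below the control libraries. It was not called in vehicle (-0.05) and was lower in R1881, at -0.47 ± 0.085 (edgeR adjusted p = 0.0017). NUPR1 stood at 134, 151 and 124 CPM in vehicle and at 207, 169 and 181 CPM in R1881, with -0.12 (not called) and -0.62 ± 0.11 (edgeR adjusted p = 0.0016). ATF5, a factor of the mitochondrial stress response, was lower, at -0.57 and -0.92. DDIT3 stood at 19.4, 22.8 and 23.3 CPM in vehicle, above the control libraries, and at 21.3, 18.4 and 21.98 CPM in R1881. It was higher in vehicle by 0.38 ± 0.096 (edgeR adjusted p = 0.017) and not called in R1881 (-0.19, edgeR adjusted p = 0.23). The vehicle call was lost without control replicate 3 (0.35), RCOR1 replicate 2 (0.35) or RCOR1 replicate 3 (0.33). EIF2AK4 was the gene that was higher in R1881, by 0.39 ± 0.069 (edgeR adjusted p = 0.0014).

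The direct comparison of UPF1 siRNA with RCOR1 siRNA uses no control library. In vehicle 19 of 32 were higher with UPF1 siRNA and 1 lower, where 18.2% of all genes were higher and 14.9% lower, with a median of 0.57 against 0.04 over all genes. In R1881 24 were higher and 1 lower (all genes 21.8% and 18.8%), with a median of 0.69. Without the AT-poor UPF1 libraries, which left 1 library in that group, the R1881 median was 0.55, and -0.02 over all genes. Fewer of the 32 and of all tested genes were called in that fit. All 8 transcription factors were higher with UPF1 siRNA in both treatments, from 0.39 for JDP2 to 1.67 for NUPR1 in vehicle and from 0.40 for JDP2 to 1.44 for DDIT3 in R1881. The JDP2 calls held in 1 of 11 and 2 of 12 alternative analyses. ATF4 was higher by 1.07 ± 0.077 in vehicle (edgeR adjusted p = 6.2e-08), and by 1.22 ± 0.077 in R1881 (edgeR adjusted p = 1.8e-08), with every UPF1 library above every RCOR1 library. SLC1A5 was higher by 1.16 ± 0.12 (edgeR adjusted p = 3.7e-06) and 1.19 ± 0.12 (edgeR adjusted p = 2.3e-06). All 5 enzymes were higher in R1881, from 0.56 for CBS to 1.01 for PCK2, ASNS among them at 0.63 ± 0.22 (edgeR adjusted p = 0.032). The CBS call was lost without both AT-poor UPF1 libraries, at 0.25 (edgeR adjusted p = 0.33). The ASNS call was lost without these and without UPF1 R1881 replicate 1, RCOR1 R1881 replicate 2 or RCOR1 R1881 replicate 3, with a lowest value of 0.44 over all alternatives. The nutrient-sensing kinase EIF2AK4 was the exception, lower with UPF1 siRNA, at -0.40 ± 0.069 (edgeR adjusted p = 0.00031) and -0.53 ± 0.069 (edgeR adjusted p = 2.3e-05). SLC6A9, DDIT4 and VLDLR did not differ past the threshold in either treatment, and their 95% intervals for R1881 ran from -0.41 to 0.09, from -0.01 to 0.37 and from -0.33 to 0.07.

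**Figure D3:**
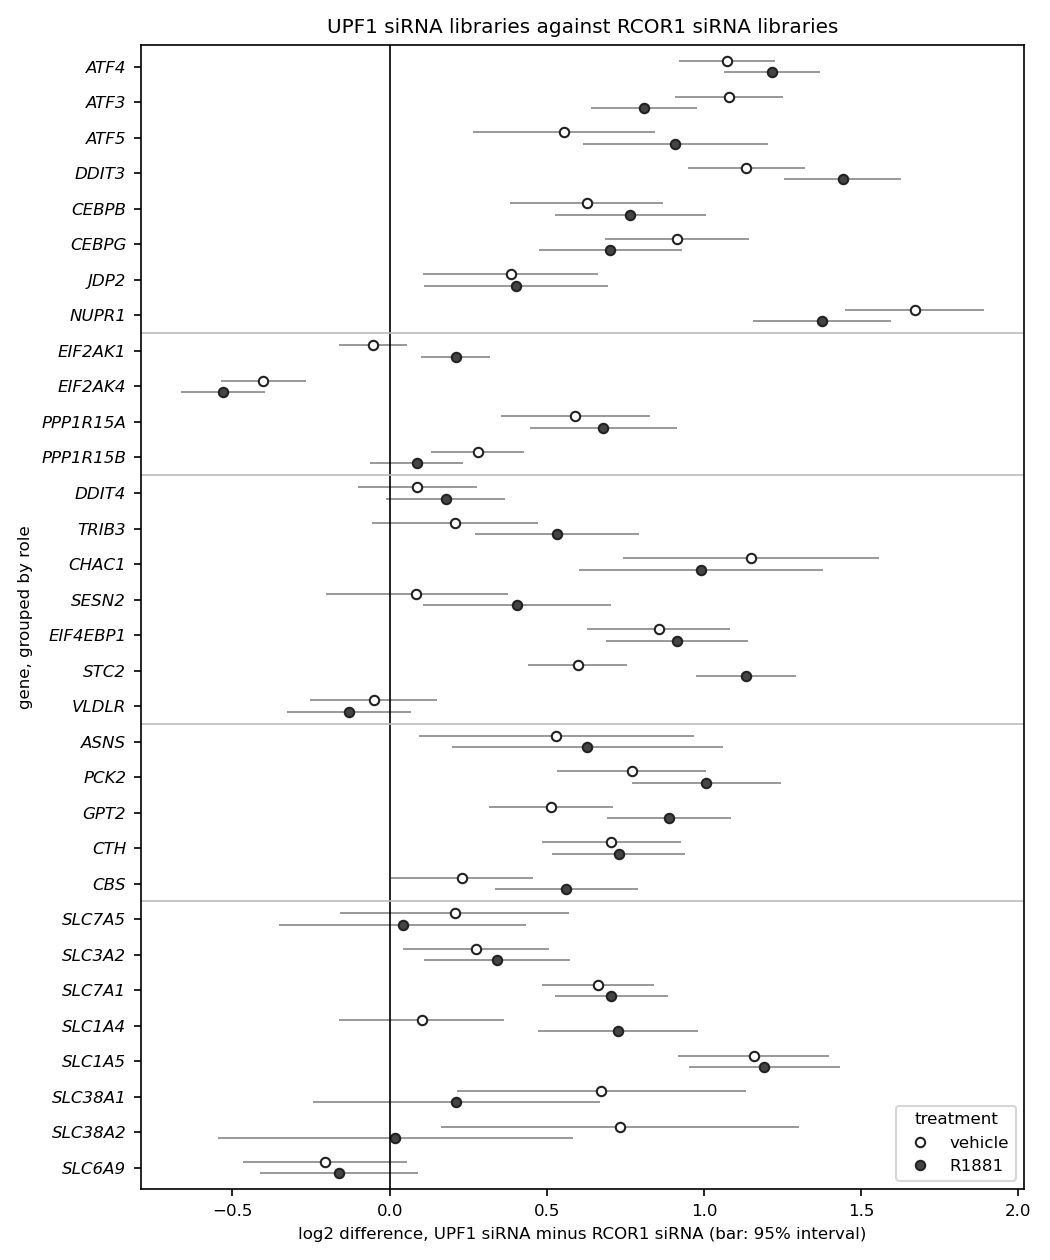
Log2 difference between UPF1 siRNA and RCOR1 siRNA libraries for the 32 genes (rows, grouped by role) in vehicle (open) and R1881 (filled), with 95% intervals. All 8 transcription factors lie to the right of 0 in both treatments, EIF2AK4 lies to the left, and VLDLR, DDIT4 and SLC6A9 have intervals that hold 0.

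The response to R1881 itself was compared between arms by interaction, the R1881 response with a targeting siRNA minus that with control siRNA. With UPF1 siRNA 4 of 32 were called, 2 in each direction, where 2.72% of all genes were called in either direction. The R1881 response of ATF3 and NUPR1 was smaller, with differences of -0.69 ± 0.12 (edgeR adjusted p = 0.0063) and -0.79 ± 0.15 (edgeR adjusted p = 0.013), starting from higher vehicle levels. STC2 and GPT2 responded more, by 0.66 ± 0.11 (edgeR adjusted p = 0.0051) and 0.60 ± 0.14 (edgeR adjusted p = 0.035). STC2 stood at 58.1, 66.2 and 58.1 CPM in control vehicle libraries and at 51.1, 52.98 and 56.7 CPM with R1881, and the change was not called. With UPF1 siRNA it rose from 58.1, 60.8 and 58.97 CPM to 86.8, 84.3 and 76.6 CPM, with no overlap. The GPT2 call held in 7 of 18 alternative analyses and was lost without any UPF1 vehicle library, control vehicle replicate 2, control R1881 replicate 2 or 3, or UPF1 R1881 replicate 1 or 2, at 0.50 to 0.62. Without both AT-poor UPF1 R1881 libraries these 4 calls were lost, at values of -0.77 for ATF3, -0.91 for NUPR1, 0.56 for STC2 and 0.51 for GPT2. That fit had 1 library left in the group, and fewer of all tested genes were called as well. With RCOR1 siRNA edgeR called 0 of 32, where 0.767% of all genes were called, and so did DESeq2. At an unadjusted p below 0.05 edgeR found 1 higher and 4 lower, where 10.2% of all tested genes met that threshold in either direction. The steepest of these was DDIT3, at -0.57 ± 0.14 (edgeR adjusted p = 0.067).

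Related genes outside the 32 were read from lists chosen by name, and serve to place the values. Their counts stand against the shares of all genes given above for each comparison, such as 20.1% higher and 17.6% lower for R1881 with control siRNA. Of 20 other genes of eIF2 and its regulators, 9 rose with R1881 with control siRNA, among them PPP1CB, a catalytic phosphatase subunit (1.33 ± 0.32), and DNAJC3, an inhibitor of PERK and PKR (1.30 ± 0.24). With RCOR1 siRNA 3 of the 20 were lower and 1 higher in vehicle, and 0 higher and 2 lower in R1881, near the 7.33% of all genes that were lower there. Of 21 tested other ATF4 and CHOP targets, 12 rose and 3 fell with R1881 with control siRNA, with a median of 0.55. The steepest were WIPI1, an autophagy gene (3.45 ± 0.14), DNAJB9, an ER co-chaperone (2.25 ± 0.28), and ERO1A, an ER oxidase (1.78 ± 0.20). With UPF1 siRNA 12 of these 21 were higher and 1 lower in vehicle (all genes 18.5% and 16%), led by GDF15, a stress-induced secreted factor (2.24 ± 0.15). In R1881 8 were higher and 2 lower (all genes 17.6% and 15.7%). The medians with UPF1 siRNA were 0.49 in vehicle and 0.11 in R1881. With RCOR1 siRNA 2 of the 21 were higher and 2 lower in vehicle (all genes 5.31% and 6.21%), with a median of 0.03. In R1881 2 were higher and 9 lower (all genes 5.06% and 7.33%), led by GDF15 (-1.53 ± 0.14). The median in R1881 was -0.28. For GDF15 the interactions were called with both siRNAs, at -1.56 ± 0.20 (edgeR adjusted p = 0.00055) and -1.67 ± 0.20 (edgeR adjusted p = 0.00067).

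Serine and one-carbon genes of ATF4 were lower with RCOR1 siRNA in 7 of 10 cases in vehicle and 5 of 10 in R1881 (all genes 6.21% and 7.33%), with MTHFD2, a mitochondrial folate enzyme, at -1.25 ± 0.11 and -0.75 ± 0.11. With R1881 and control siRNA 3 of these 10 rose and 2 fell, with a median of 0.08. R1881 raised 6 and lowered 0 of them in the UPF1 arm, and 5 and 1 in the RCOR1 arm. With RCOR1 siRNA 6 of 12 aminoacyl-tRNA synthetases were lower in each treatment, GARS1 at -0.54 and -0.36, and 10 of 12 rose with R1881 with control siRNA. Genes of the XBP1 and ATF6 branches of the ER stress response rose with R1881 in 13 of 14 cases with control siRNA, with a median of 0.77, where that of the 32 genes was 0.42. ERN1, the sensor kinase IRE1, rose by 1.87 ± 0.063, and HSPA5, the chaperone BiP, by 0.65 ± 0.054. With RCOR1 siRNA 4 of these 14 were lower in vehicle and 10 in R1881, among them SDF2L1 (-0.76) and EDEM1 (-0.68). With UPF1 siRNA 8 of the 14 were higher in vehicle and 10 in R1881 (all genes 18.5% and 17.6%), and 0 were lower. Of the 10 serine and one-carbon genes, 1 was higher and 3 lower with UPF1 siRNA in vehicle, and 1 and 1 in R1881. Of the 12 synthetases, 6 were higher and 1 lower in vehicle, and 4 and 1 in R1881.

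**Figure D4:**
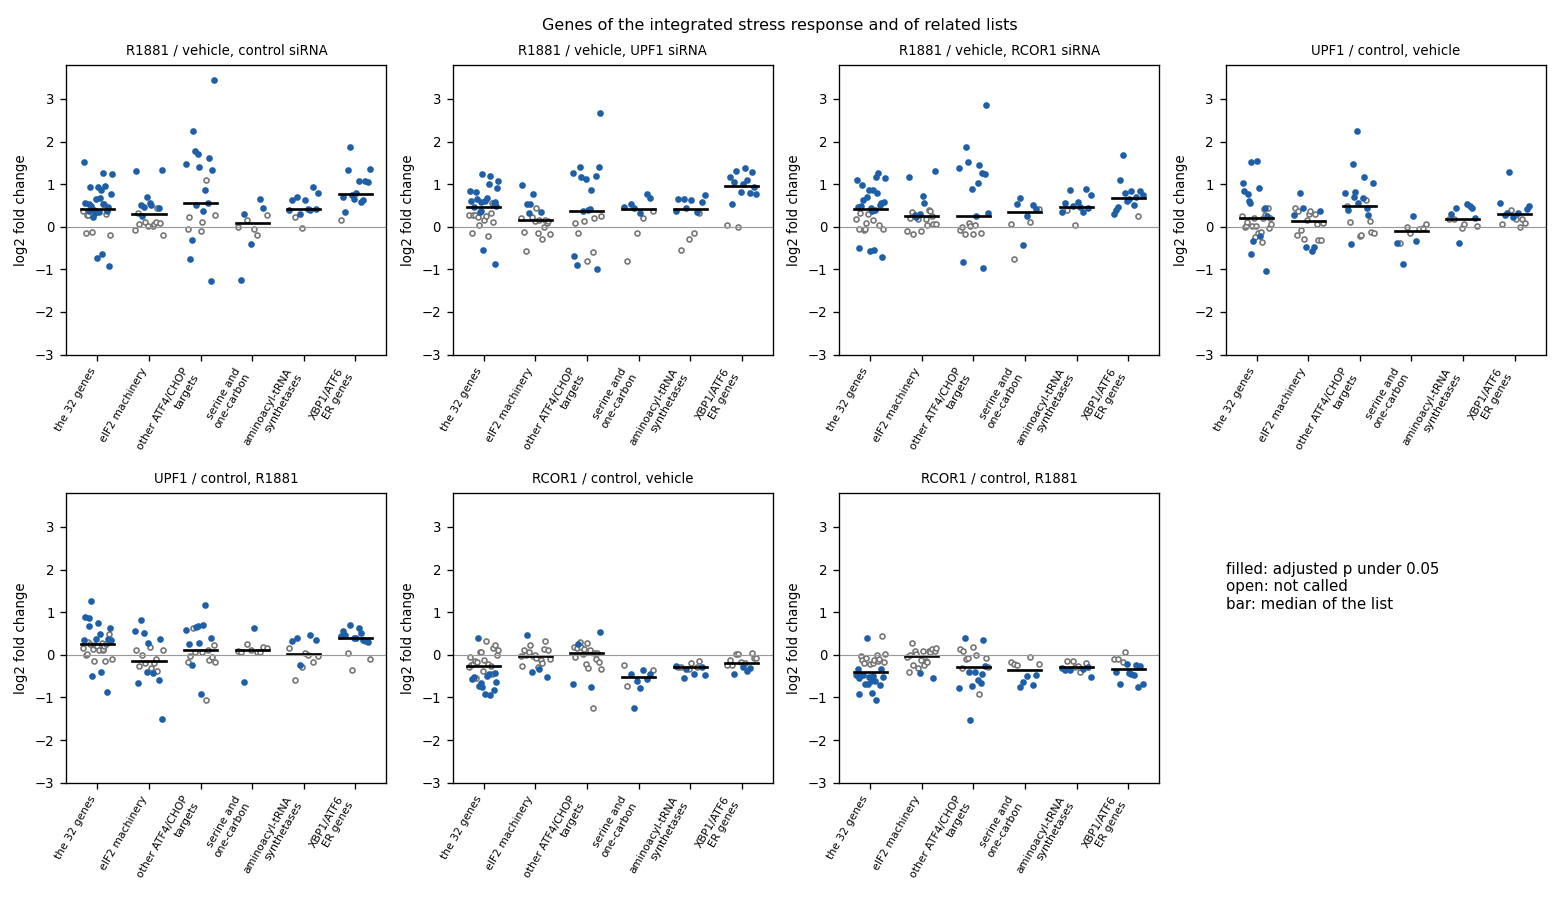
Log2 fold change of each gene (points; filled where the edgeR adjusted p is below 0.05) in the 32 genes and 5 related lists, for 7 comparisons, with the list's median as a bar. With R1881 the ER list has the highest median with control siRNA (0.77), and with RCOR1 siRNA in vehicle the serine and one-carbon list has the lowest (-0.51).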

How the data were processed

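Total RNA (500 ng) was depleted of ribosomal RNA and sequenced. Deposited values were raw counts of reads per gene, which the authors made, per the submitters' processing notes, with bcl2fastq 2.20, STAR 2.7.9a on GRCh38.p7 and featureCounts of Subread 1.6.4. The annotation release was, like the strand setting, not given in the sources used here, so reads of overlapping genes and of gene copies are of uncertain assignment.

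The test was that of edgeR 4.0.16 under R 4.3.3: filterByExpr by group, TMM scaling, 1 mean per group over 18 libraries, and the quasi-likelihood F test with Benjamini-Hochberg adjustment over 15390 genes. The common dispersion was 0.024. SEs were derived from the fold change and its F value, and 95% intervals span 1.96 SE on either side. Errors cover the spread between these libraries and counting. Lengths, coordinates and GC content came from GENCODE 29 on GRCh38 and promoters from RefSeq. Values per library were printed for ATF4, ATF3, DDIT3 and any gene called at 1 log2 unit or more, either way, against control or vehicle; ASNS and STC2 were added after their values were seen. The script was tested on simulated counts. Alternatives were other scalings, no filter, DESeq2 1.42.0, only the compared groups, and left-out libraries. The 32 genes, lists and tests were chosen with earlier results of these data known.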

Additional observations from a re-analysis of the deposited data

Results flagged for a closer look

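The R1881 response of 4 genes differed between UPF1 siRNA and control siRNA in a test of the difference itself (edgeR interaction). The difference was -0.69 for ATF3 and -0.79 for NUPR1, whose R1881 response was smaller with UPF1 siRNA. It was 0.66 for STC2 and 0.60 for GPT2, whose response was larger. Without both AT-poor libraries of UPF1 siRNA with R1881 the differences were -0.77, -0.91, 0.56 and 0.51, and none of the 4 was called. That fit had 1 library left in the group, so the loss of the calls does not show that the 2 libraries carried the differences.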

How the results depend on the processing

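Over 11 comparisons, 174 calls were made on the 32 genes, of which 111 held under every alternative that bore on them. The call of 1, EIF2AK1 with R1881 and control siRNA, reversed to -0.0194 under library size alone (edgeR adjusted p = 0.86). Called counts were within 1.5 times the main count under the other alternatives, with these exceptions. Without both AT-poor UPF1 R1881 libraries, 13 genes were called for R1881 with UPF1 siRNA (20 with all libraries), 9 for UPF1 against control siRNA in R1881 (14) and 0 for the UPF1 interaction (4). Fitted on the compared groups alone, 8 were called for RCOR1 against control siRNA in vehicle (13 in the main fit), as were 744 of all 14487 tested genes. The UPF1 interaction had 1 in such a fit (177 of 15059 tested genes), against 4 in the main fit. Under library size alone the UPF1 interaction had 2 (569 of 15390 tested genes). Leaving out 1 library at a time gave 9 to 17 calls for UPF1 against control siRNA in R1881, with the fewest without control R1881 replicate 3. The cause was not tested.

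Under library size alone the share of all calls that were higher was 26.5% against 53.3% for R1881 with control siRNA, 37.3% against 51.9% with UPF1 siRNA and 29.3% against 52.3% with RCOR1 siRNA. In R1881 it was 67.1% against 52.8% for UPF1 siRNA and 67.7% against 40.8% for RCOR1 siRNA, and in the interactions 75.2% against 49.6% and 50.9% against 29.7%. No paired analysis was possible because the labels give no replicate numbers: those used here are in order of deposition and a block on them would pair libraries by that order alone. ASNS had the lowest count of the 32 genes in a library, 42.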
